A study of Rattus norvegicus with 16 samples.

Results

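The MCM genes Mcm2, Mcm3, Mcm5, Mcm6 and Mcm7, which encode subunits of the replicative DNA helicase, were followed in rat neural stem and progenitor cells that had lost their mitogen or had it replaced. Members were the named genes among these symbols with at least 1 array feature annotated to that symbol alone, and this gave 5 genes, each read by 1 feature with a value on all 16 arrays, out of 12559 genes and unnamed probes tested and 6241 named genes. Mcm4 was not analysed here. Embryonic neocortex of Sprague-Dawley rats (embryonic day 14.5) gave the cells, which grew as a monolayer in N2 medium with FGF-2, a fibroblast growth factor, at 10 ng/ml. There were 4 groups of 4 two-colour arrays: platelet-derived growth factor AA (PDGF-AA, 10 ng/ml) for 6 d, no factor for 6 d, PDGF-AA for 12 h and no factor for 12 h. On every array the other dye carried RNA of cells kept in FGF-2, and the sample was in Cy5 on 2 arrays of each group and in Cy3 on the other 2. The labels do not say how long the reference cells had been kept or how many litters were used.

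A value below is a log2 ratio of sample over FGF-2 reference after the median of each array was set to 0, so it is a level relative to the reference and says nothing of how abundant one gene is against another. Neither the log base, taken as 2, nor the direction of the ratios is given in the labels. The likely direction was taken from 3 known FGF target genes and not from the MCM genes. In no factor at 6 d the feedback inhibitor gene Spry4 was at -2.15 (limma adjusted p = 0.000393), the transcription factor gene Etv5 at -1.67 (limma adjusted p = 3.12e-06) and the ERK pathway inhibitor gene Spred2 at -0.85 (limma adjusted p = 7.11e-05). At least 2 RNA preparations lie behind each set of hybridisations, but the labels do not say which arrays share one, so the p-values measure the spread between arrays, which may be partly technical. The 4 groups share the type of reference, cells in FGF-2, and whether its RNA was the same in all groups and at both times is not known here. The spread of the reference is left out of each comparison with it. Array titles carry a first number that the labels do not explain. Its commonest value stands on 12 of 16 arrays: on 1 of 4 PDGF-AA arrays and 3 of 4 no factor arrays at 6 d, and on all arrays at 12 h, so at 6 d it goes partly with the treatment. A dye effect passed the threshold in 39.1% of the 12559 units, and the dye is a term of the fit. The labelled cell type could not be checked by level, since ratios do not show whether a gene is present. Of 10 progenitor markers listed, 4 were measured (Nes, Vim, Id1, Prom1). At 6 d 2 were lower than in FGF-2 in PDGF-AA (1.32% of all units were) and 2 in no factor (6.73% of all units). At 12 h 1 was lower in PDGF-AA (2.35% of all units) and 2 in no factor (6.48% of all units).

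MCM proteins form the ring that is loaded onto replication origins in the first gap phase of the cell cycle by the origin recognition complex, Cdc6 and Cdt1, and that unwinds DNA once Cdc45 and the GINS complex have joined it. Transcription of the MCM genes is a textbook target of E2F factors, it rises as cells prepare for S phase, and MCM proteins are widely used to mark cells that can divide. In the embryonic neocortex dividing progenitors carry them, and they are lost as cells leave the cycle to become neurons or glia. FGF-2 is the mitogen that keeps these cultures dividing, and PDGF-AA acts through the receptor encoded by Pdgfra, best known for driving division of oligodendrocyte progenitors.

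The sequence around the start site of each rat gene is shown as background, since MCM genes are textbook targets of E2F factors. E2F binding was not measured, and a link between these letters and the MCM values was not tested. All 5 symbols matched the RefSeq rat promoter table (build GRCr8), which gives 250 bases before and 50 bases after a start. Mcm2 lies on the minus strand and its window is chr4:122918045-122918344. The windows of Mcm3 (minus strand) and Mcm5 (plus strand) are chr9:30733697-30733996 and chr19:13488563-13488862. Mcm6 and Mcm7, both on the minus strand, have windows at chr13:42404303-42404602 and chr12:22163129-22163428. For Mcm2 and Mcm7 the start in the table lies inside the annotated gene, whose outer edges are at 122918205 and 22163320. Capitals mark matches to E2F core letters and to the CCAAT box, on either strand, and each line runs 5′ to 3′ on the strand of its gene.

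Mcm2: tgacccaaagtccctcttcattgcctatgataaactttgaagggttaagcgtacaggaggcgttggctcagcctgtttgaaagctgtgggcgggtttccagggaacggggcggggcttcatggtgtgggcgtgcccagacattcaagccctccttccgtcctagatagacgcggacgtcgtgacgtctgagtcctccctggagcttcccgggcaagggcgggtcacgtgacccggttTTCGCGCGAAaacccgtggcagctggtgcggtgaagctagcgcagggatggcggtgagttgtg
Mcm3: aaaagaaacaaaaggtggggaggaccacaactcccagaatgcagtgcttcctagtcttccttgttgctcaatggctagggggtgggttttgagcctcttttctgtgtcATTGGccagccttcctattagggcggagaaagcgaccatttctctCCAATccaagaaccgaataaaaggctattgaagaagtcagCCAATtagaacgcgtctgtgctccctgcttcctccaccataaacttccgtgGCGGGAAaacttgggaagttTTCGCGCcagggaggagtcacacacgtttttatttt
Mcm5: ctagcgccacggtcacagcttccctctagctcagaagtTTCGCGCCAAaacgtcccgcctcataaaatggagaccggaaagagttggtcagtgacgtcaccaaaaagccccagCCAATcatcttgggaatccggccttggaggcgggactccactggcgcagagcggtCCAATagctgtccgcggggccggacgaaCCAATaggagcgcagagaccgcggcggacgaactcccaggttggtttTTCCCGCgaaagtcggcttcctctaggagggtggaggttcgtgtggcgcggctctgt
Mcm6: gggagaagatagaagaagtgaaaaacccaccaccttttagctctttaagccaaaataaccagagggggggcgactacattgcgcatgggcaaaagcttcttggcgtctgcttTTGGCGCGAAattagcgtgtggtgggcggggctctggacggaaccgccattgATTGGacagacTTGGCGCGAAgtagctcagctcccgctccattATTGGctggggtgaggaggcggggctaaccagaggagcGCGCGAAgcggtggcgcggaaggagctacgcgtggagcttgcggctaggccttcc
Mcm7: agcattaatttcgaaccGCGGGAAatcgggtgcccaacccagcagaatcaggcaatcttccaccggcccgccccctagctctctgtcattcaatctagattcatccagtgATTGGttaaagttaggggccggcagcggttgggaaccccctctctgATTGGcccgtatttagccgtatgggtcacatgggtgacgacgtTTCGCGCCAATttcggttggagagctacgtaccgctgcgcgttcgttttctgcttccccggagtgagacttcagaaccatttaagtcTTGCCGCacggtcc

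The E2F core was searched as TTNNCGC with each N being C or G, and the CCAAT box as CCAAT, each on both strands, with overlapping matches on opposite strands counted as 1 place. E2F letters were present in all 5 MCM windows, while 9.52% of all 33469 promoters in the table held a match. Mcm6 and Mcm7 each had 3 separate places, a number reached by 0.0747% of the promoters. Mcm3 and Mcm5 had 2 places (0.923% of promoters had as many) and Mcm2 had 1. In Mcm2 the place covered bases -13 to -4 from the start, and in Mcm3, Mcm5 and Mcm6 a match also lay within 7 bases upstream of it or across it. The CCAAT box was found 3 times each in Mcm3, Mcm5 and Mcm7 and 2 times in Mcm6, with 0 matches in Mcm2, against 37.5% of promoters with at least 1 match. The GC box GGGCGG was found 3 times in Mcm2, 1 time each in Mcm3, Mcm6 and Mcm7 and 0 times in Mcm5, and in 33.1% of promoters. These matches describe letters and are not measured binding sites.

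**Figure D1:**
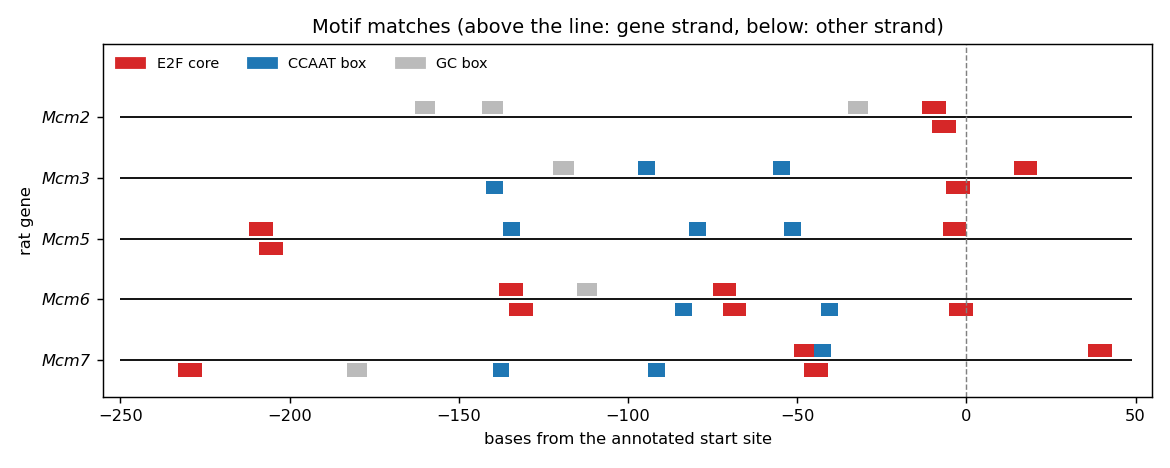
Positions of motif matches in the rat MCM promoter windows, in bases from the annotated start site (dashed line), 1 row per gene. Boxes above a line lie on the strand of the gene and boxes below it on the other strand. E2F letters stand near the start in Mcm2, Mcm3, Mcm5 and Mcm6, and next to a CCAAT box further upstream in Mcm6 and Mcm7.

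Without growth factor all 5 MCM genes were lower than in FGF-2 at both times. On average they lay nearer to FGF-2 with PDGF-AA, but 1 of the 5 direct differences passed limma's test at 12 h and 0 of 5 at 6 d. At 6 d 4 of 5 turn in sign among arrays of the commonest title number, which include only 1 PDGF-AA array of that time. All 20 values (5 genes on 4 arrays) were below 0 in no factor at 6 d and again in no factor at 12 h. With PDGF-AA, 14 of 20 values were below 0 at 6 d and 17 of 20 at 12 h. RNA was taken from whole cultures, so fewer dividing cells and less MCM RNA per cell cannot be told apart.

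Mcm6, whose product binds the loading factor Cdt1, had ratios of 0.74, -0.18, -0.16 and -1.78 on the 4 arrays of PDGF-AA for 6 d, against -1.33, -1.30, -1.76 and -0.60 in no factor for 6 d. At 12 h it had -0.43, -0.85, -0.40 and -0.26 with PDGF-AA, against -2.96, -2.35, -2.61 and -2.46 without factor. The 12 h groups lay far apart, while at 6 d PDGF-AA replicate 4 fell just below the whole no factor group. The dye effect of Mcm6 was 0.58 ± 0.23 (SE, limma adjusted p = 0.0506). With it removed, that array was at -1.49, inside the no factor range of -1.62 to -0.90. In no factor at 12 h Mcm6 averaged -2.59 ± 0.27 (SD, n = 4), 6.04-fold below FGF-2, and it ranked as the second lowest of all 12559 units.

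Mcm3, also part of the ring, had ratios of 0.16, -0.43, -0.23 and -1.11 in PDGF-AA at 6 d, against -2.02, -1.19, -1.17 and -0.89 in no factor at 6 d. At 12 h Mcm3 had -1.26, -0.83, -0.35 and -0.78 with PDGF-AA, against -2.12, -2.48, -2.58 and -1.51 without factor. All PDGF-AA arrays were above all no factor arrays at 12 h, and at 6 d only PDGF-AA replicate 4 reached into the no factor range. Its mean in no factor at 12 h was -2.17 ± 0.48 (SD, n = 4), a 4.5-fold decrease and rank 5 from the lowest.

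Mcm2, a subunit phosphorylated by the Cdc7 and Dbf4 kinase when origins fire, had ratios of 0.52, -0.35, 0.02 and -0.92 in PDGF-AA at 6 d, against -1.5, -0.75, -1.13 and -0.85 in no factor at 6 d. At 12 h Mcm2 had -0.60, -0.32, -0.17 and -0.67 with PDGF-AA, against -1.38, -1.86, -1.81 and -1.06 without factor. The groups were again separate at 12 h and overlapped at 6 d through PDGF-AA replicate 4.

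Mcm5, which adjoins Mcm2 at the gate of the ring, had ratios of -0.03, -0.09, 0.17 and -0.53 in PDGF-AA at 6 d, against -1.5, -0.75, -0.66 and -0.54 in no factor at 6 d. At 12 h Mcm5 had -1.26, -0.24, 0.45 and -0.63 with PDGF-AA, against -0.91, -2.08, -2.70 and -0.96 without factor. Its 6 d groups were just separate and its 12 h groups overlapped, and at 12 h both Cy5 arrays of a group lay below both Cy3 arrays. The dye effect of Mcm5 (Cy5 minus Cy3) was -0.67 ± 0.22 (SE, limma adjusted p = 0.0221). With the dye effect taken out, its 12 h values ran between -0.92 and 0.11 with PDGF-AA, against -2.36 and -1.25 without factor. Its 6 d values then overlapped, at -0.86 to 0.30 with PDGF-AA, against -1.16 to -0.20 without factor.

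Mcm7, part of the helicase core and host of a microRNA cluster in an intron, had ratios of 0.17, -0.06, -0.77 and -1.22 in PDGF-AA at 6 d, against -0.64, -1.37, -1.60 and -0.57 in no factor at 6 d. At 12 h Mcm7 had 0.04, -0.67, -0.71 and 0.20 with PDGF-AA, against -1.14, -0.47, -0.48 and -1.26 without factor. The raw groups overlapped at both times, with Cy5 arrays high and Cy3 arrays low in every group. Its dye effect was 0.87 ± 0.09 (SE, limma adjusted p = 1.71e-05), the largest among the 5 genes. Once the dye effect was removed Mcm7 was the least variable member, at -0.79 to -0.26 in PDGF-AA and -1.16 to -0.93 in no factor at 6 d. At 12 h it was then at -0.40 to -0.23 in PDGF-AA and -0.91 to -0.71 in no factor.

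**Figure D2:**
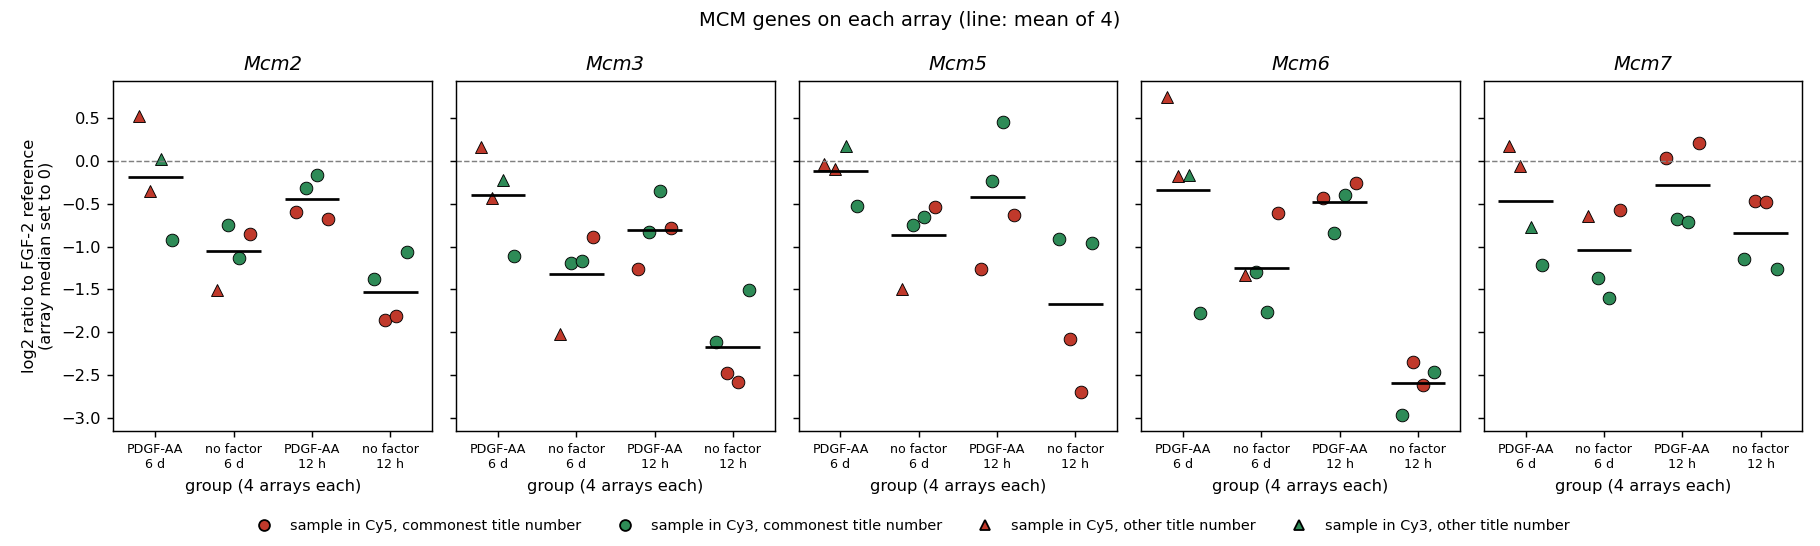
Log2 ratio to the FGF-2 reference of each MCM gene on each array, by group. Colour gives the dye of the sample, shape the number in the array title and the line the mean of 4 arrays. Mcm6 in no factor at 12 h lies between -2.96 and -2.35, below its other 12 arrays, and the lowest point of PDGF-AA at 6 d is the array of the commonest title number for every gene.

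In no factor at 12 h, 5 of 5 MCM genes were called lower than in FGF-2 by limma (adjusted p under 0.05 over all units), where 6.48% of all units were called lower. The log2 ratios were -1.53 ± 0.18 for Mcm2, -2.17 ± 0.21 for Mcm3, -1.67 ± 0.22 for Mcm5, -2.59 ± 0.23 for Mcm6 and -0.84 ± 0.09 for Mcm7 (SE). Their adjusted p-values from limma were 3.75e-05, 5.44e-06, 8.14e-05, 3.96e-06 and 1.33e-05. The median of the members was -1.67, and that of all units was 0.00. Mcm7 fell least, 1.79-fold, and its 95% interval of -1.03 to -0.65 did not meet that of any other member.

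In no factor at 6 d, 5 of 5 were again called lower, and 6.73% of all units were. The values ran from -1.32 ± 0.21 for Mcm3 (limma adjusted p = 0.000371) to -0.86 ± 0.22 for Mcm5 (limma adjusted p = 0.0127). Mcm6 was at -1.25 ± 0.23, Mcm2 at -1.06 ± 0.18 and Mcm7 at -1.04 ± 0.09 (SE). Without replicate 1, 2 or 3 of this group the Mcm5 call was lost (limma adjusted p = 0.0951, 0.0721 and 0.0755), and over 28 alternative settings its adjusted p from limma ran from 0.00515 to 0.0951.

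In PDGF-AA at 6 d, 1 of 5 was called lower, Mcm7 at -0.47 ± 0.09 (SE, limma adjusted p = 0.00642), and 1.32% of all units were called lower. The 95% intervals of the other 4 all included 0, and their values were -0.18 for Mcm2, -0.40 for Mcm3, -0.12 for Mcm5 and -0.34 for Mcm6. Without PDGF-AA replicate 4 the values of Mcm2, Mcm5 and Mcm6 were above 0, at 0.12, 0.15 and 0.073. With the title number as a fixed term the group value rests on PDGF-AA replicate 4 alone, its only array of the commonest title number. The values were then -1.10 for Mcm2, -1.27 for Mcm3, -0.93 for Mcm5, -1.6 for Mcm6 and -0.82 for Mcm7. They describe that array and not the spread of the group. The main intervals reach down to -0.57, -0.83, -0.58 and -0.82, so a moderate decrease would not have been detectable with 4 arrays. Without PDGF-AA replicate 4 the Mcm7 call was lost (-0.35, limma adjusted p = 0.0596, range over all alternatives 0.00465 to 0.855). In PDGF-AA at 12 h, 1 of 5 was called lower, Mcm3 at -0.81 ± 0.21 (SE, limma adjusted p = 0.0428), and 2.35% of all units were. The other members lay between -0.49 (Mcm6) and -0.29 (Mcm7). The Mcm3 call was lost on leaving out any 1 of 9 arrays, namely each of the 4 PDGF-AA 12 h arrays, PDGF-AA 6 d replicate 2, no factor 6 d replicates 2 and 3, and no factor 12 h replicates 1 and 2, with limma adjusted p up to 0.312 (0.00075 to 0.312 over all alternatives). Without PDGF-AA 6 d replicate 4 Mcm7 was called as well (limma adjusted p = 0.0483).

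**Figure D3:**
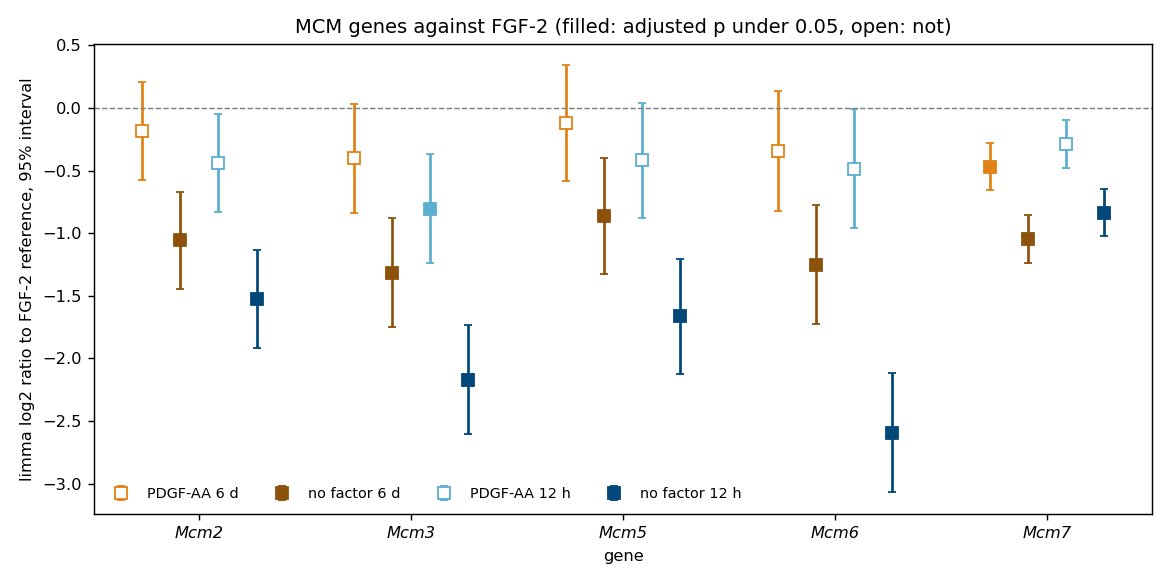
limma log2 ratio to the FGF-2 reference with its 95% interval for each MCM gene (4 arrays per group), groups side by side. Filled squares passed an adjusted p of 0.05 and open squares did not. Both no factor groups are filled for all 5 genes, Mcm7 alone is filled in PDGF-AA at 6 d and Mcm3 alone in PDGF-AA at 12 h.

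Ordered by level, Mcm2, Mcm3, Mcm5 and Mcm6 ran from PDGF-AA at 6 d (highest) through PDGF-AA at 12 h and no factor at 6 d to no factor at 12 h (lowest). In Mcm2, Mcm3 and Mcm6 the steps from PDGF-AA at 12 h to no factor at 6 d and from there to no factor at 12 h were larger than the larger SD of the neighbouring groups, with or without the dye effect in that SD. The step between the PDGF-AA groups was smaller than it in all 5 genes either way. Mcm7 was ordered differently, with PDGF-AA at 12 h highest, then PDGF-AA at 6 d, no factor at 12 h and no factor at 6 d. For Mcm5 and Mcm7 no step exceeded the larger SD of the values as centred. With the dye effect removed, the Mcm5 step between no factor at 6 d and at 12 h, 0.80, exceeded an SD of 0.52. The Mcm7 steps of 0.37 (PDGF-AA at 6 d to no factor at 12 h) and 0.21 (between the no factor groups) then exceeded SDs of 0.23 and 0.10.

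PDGF-AA was compared directly with no factor at each time. The reference cancels there only if both groups were set against the same reference RNA, which was not tested. At 12 h all 5 MCM genes were higher on average with PDGF-AA, and 1 of 5 passed the test, where 0.0159% of all units (2 of 12559) did. This was Mcm6, higher by 2.11 ± 0.32 (SE, 4.31-fold, limma adjusted p = 0.0329), the largest positive difference of all 12559 units. The differences of the other members were 1.09 ± 0.26 for Mcm2 (limma adjusted p = 0.332), 1.37 ± 0.29 for Mcm3 (limma adjusted p = 0.218), 1.25 ± 0.31 for Mcm5 (limma adjusted p = 0.384) and 0.55 ± 0.13 for Mcm7 (limma adjusted p = 0.303). Every PDGF-AA array was above every no factor array for Mcm2, Mcm3 and Mcm6, a separation found in 1.65% of all units. With dye effects removed this held for all 5 genes, and for 3.14% of all units. The Mcm6 call was lost on leaving out any 1 of 9 arrays (each PDGF-AA 12 h array, no factor 12 h replicates 1, 2 and 3 and no factor 6 d replicates 2 and 3), with limma adjusted p up to 0.241, while its difference stayed between 1.97 and 2.26 over all 16 such omissions. Over all alternatives its adjusted p from limma ran from 0.00057 to 1.0. When only the 8 arrays of 12 h were fitted, 3 of 5 were called (Mcm2, limma adjusted p = 0.00893, Mcm3, limma adjusted p = 0.0113, and Mcm6), and 0 were when arrays were first given equal spread. The share of all units called in those fits is not given here, so these counts cannot be set against it.

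At 6 d the differences were 0.87 ± 0.26 for Mcm2, 0.92 ± 0.29 for Mcm3, 0.74 ± 0.31 for Mcm5, 0.91 ± 0.32 for Mcm6 and 0.58 ± 0.13 for Mcm7 (SE), all with PDGF-AA higher. None passed limma's test (adjusted p from 0.272 for Mcm7 to 0.521 for Mcm5), although all 5 had an unadjusted p under 0.05, and 0.00796% of all units were called at this time, against 1100 units with an unadjusted p under 0.05. These differences depended on PDGF-AA replicate 4, the only PDGF-AA array of 6 d with the commonest title number. An effect of that array and one of the title number cannot be told apart here. Over the 16 omissions of 1 array all 5 stayed positive, between 0.50 (Mcm7) and 1.32 (Mcm6). Over the 5 genes, the 4 PDGF-AA arrays averaged 0.31, -0.22, -0.19 and -1.11, where the last, replicate 4, is the array with the commonest title number, against -1.40, -1.07, -1.26 and -0.69 in no factor. Among arrays of the commonest title number, 1 PDGF-AA array against 3 without factor, the difference was -0.13 for Mcm2, -0.14 for Mcm3, -0.18 for Mcm5 and -0.41 for Mcm6, and it kept its sign only for Mcm7 at 0.23. The lone array is assumed there to vary as the other groups do, and none of the 5 was called (limma adjusted p from 0.852 to 0.971). Without that PDGF-AA array, replicate 4, Mcm2 (1.17, limma adjusted p = 0.0295), Mcm6 (1.32, limma adjusted p = 0.0295) and Mcm7 (0.69, limma adjusted p = 0.0253) were called higher, and over all alternatives their adjusted p-values from limma reached 0.999. Whether the title number goes with a batch was not tested.

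**Figure D4:**
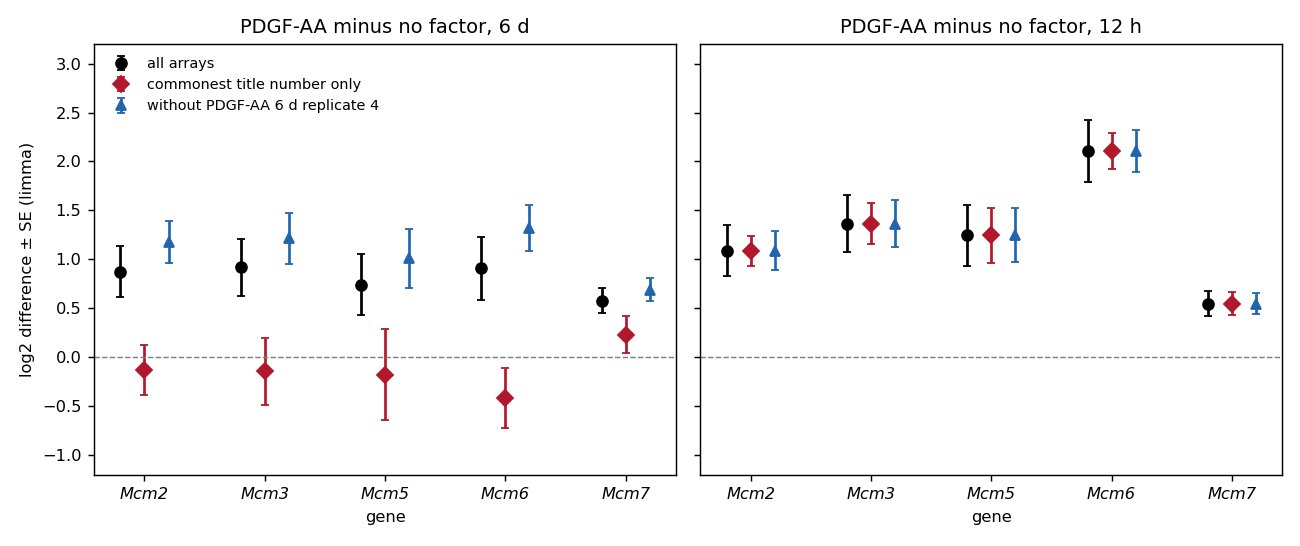
Difference in log2 ratio, PDGF-AA minus no factor, with its SE from limma for each MCM gene at 6 d (left) and 12 h (right). Black is the fit of all 16 arrays, red the arrays of the commonest title number and blue the fit without PDGF-AA 6 d replicate 4. At 12 h the 3 fits give the same differences, and at 6 d the red values of Mcm2, Mcm3, Mcm5 and Mcm6 lie below 0 and the blue values above the black ones.

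Between the times, the MCM genes of cells without factor were less far below FGF-2 at 6 d than at 12 h, except Mcm7. In this contrast the reference cancels only if the same reference RNA was used at both times, which was not tested. Only Mcm6 passed the test, at -1.25 in no factor at 6 d and -2.59 in no factor at 12 h (difference 1.34 ± 0.32, SE, limma adjusted p = 0.0402), where 1.87% of all units did. Mcm3 differed by 0.85 ± 0.29 (limma adjusted p = 0.183), Mcm5 by 0.80 ± 0.31 (limma adjusted p = 0.268), Mcm2 by 0.47 ± 0.26 (limma adjusted p = 0.567) and Mcm7 by -0.21 ± 0.13 (limma adjusted p = 0.623). The Mcm6 call was lost without any 1 of 9 arrays (no factor 12 h replicates 1 to 4, no factor 6 d replicates 2, 3 and 4 and PDGF-AA 12 h replicates 2 and 4), with limma adjusted p up to 0.136 (0.00292 to 0.51 over all alternatives). With PDGF-AA, 6 d and 12 h differed by -0.18 (Mcm7) to 0.41 (Mcm3), with 0 of 5 called by limma, no member at an unadjusted p under 0.05 and 1.07% of all units called. The interaction, which asks whether the PDGF-AA difference itself changed with time, was called for 0 of 5 members and for 0% of units (497 units had an unadjusted p under 0.05). Its largest value among the members was -1.2 ± 0.45 for Mcm6 (SE, unadjusted p = 0.0167 from limma, adjusted p = 0.995).

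Whether the members responded by different amounts was asked within arrays, where centring cancels. The difference between 2 members on an array was compared between PDGF-AA and no factor, for 10 pairs at each time, with an exact two-sided permutation test of 4 against 4 arrays whose smallest p is 0.0286. Mcm6 minus Mcm7 averaged -0.20 ± 0.37 with PDGF-AA and -1.76 ± 0.39 without factor at 12 h (SD, n = 4 each, exact permutation p = 0.0286). That was the only 1 of 20 tests at the smallest p (adjusted exact permutation p = 0.571). An adjusted p over 20 tests can pass only if at least 12 of them sit at the smallest p, so missing it says little here. With dye effects removed the difference was the same 1.56, and 5 of the 12 h pairs reached the smallest p: Mcm6 against each of the other 4, and Mcm3 against Mcm7. Their adjusted exact permutation p was 0.114.

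Over the 16 arrays, with dye effects removed, the Pearson correlations among Mcm2, Mcm3, Mcm5 and Mcm6 ran from 0.887 (Mcm2 with Mcm5) to 0.960 (Mcm3 with Mcm6). Mcm7 correlated with them at 0.624 to 0.764. Of the 6240 other named genes, the one most like Mcm2 was Mcm3, and the one most like Mcm5 was also Mcm3. For the other members a gene outside the 5 came first. The nearest member was Mcm6 at rank 2 for Mcm3, Mcm3 at rank 3 for Mcm6 and Mcm2 at rank 37 for Mcm7. The arrays share a type of reference and fall into 4 groups, so these are descriptions with no test.

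Among genes outside the 5, the highest correlation with their mean profile belonged to Rrm2, a subunit of ribonucleotide reductase (0.956), Gmnn, encoding the licensing inhibitor geminin (0.955), Ibtk, named for an inhibitor of a tyrosine kinase (0.952), and the cyclin E gene Ccne1 (0.940). Next came the RNA export factor gene Nxt1 (0.921), the mitochondrial ribosomal protein gene Mrpl12 (0.919), Tex101, known from testis (0.905), the deubiquitinase gene Usp1 (0.903), Rpa3, a subunit of the single-strand DNA binding protein (0.903), and Nop58, a nucleolar RNA-protein component (0.901). The lowest were Plbd2 (-0.905), Mprip (-0.897) and Clip1 (-0.886). The middle of the distribution over 6236 named genes was -0.05, with quartiles at -0.33 and 0.24, and these 13 are its extremes. Rrm2 was at -0.23 in PDGF-AA and -1.42 in no factor at 6 d, and at -0.91 in PDGF-AA and -2.66 in no factor at 12 h. Ibtk, with no textbook link to replication, was at -0.61 in PDGF-AA and -1.52 in no factor at 6 d, and at -0.81 in PDGF-AA and -2.20 in no factor at 12 h.

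Around the helicase, genes listed under origin licensing showed a mixed pattern. Not all of them load the ring, since the list also holds the inhibitor gene Gmnn, Mcm10 and Mcm3ap. Of all units, 1.9% were called higher than in FGF-2 in PDGF-AA at 6 d, 6.99% in no factor at 6 d, 0.661% in PDGF-AA at 12 h and 5.21% in no factor at 12 h, beside the shares called lower given above. Of 10 measured origin licensing genes outside the members, 5 were lower and 1 higher than in FGF-2 in no factor at 12 h by limma's test, 1 was lower in PDGF-AA at 12 h, 4 in no factor at 6 d and 0 in PDGF-AA at 6 d. Gmnn was at -0.52 in PDGF-AA and -1.25 in no factor at 6 d, and at -0.87 in PDGF-AA and -1.93 in no factor at 12 h. The loading factor genes Cdc6 and Cdt1 fell to -0.71 and -0.66 in no factor at 12 h (limma adjusted p = 0.00341 and 0.0271), and were at 0.02 and -0.23 in PDGF-AA at 12 h, not called. Of the origin recognition complex, Orc6 (-0.86) and Orc5 (-0.43) fell in no factor at 12 h, while Orc1 (0.06), Orc2 (-0.05) and Orc4 (0.15) were not called in any group. Mcm10, an initiation factor that is no part of the ring, was at -0.42 in no factor at 12 h and not called in any group. Mcm3ap, a gene named for binding Mcm3 and known for RNA export, was the one that rose, by 0.39. The 4 licensing genes called in no factor at 6 d became 2 without no factor 6 d replicate 1, 3 or 4, the 6 called in no factor at 12 h became 3 without no factor 12 h replicate 1 or 3, and the 1 called in PDGF-AA at 12 h was lost without PDGF-AA 12 h replicate 1, 2 or 4.

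The list of helicase activation also holds fork protection and checkpoint genes. Of its 9 measured genes, 6 were lower in no factor at 12 h and 3 in PDGF-AA at 12 h. At 6 d, 4 were lower in no factor and 0 in PDGF-AA, and 0 were higher in any group. Cdc45, which joins the ring to start unwinding, was at -0.68 in PDGF-AA and -1.32 in no factor at 12 h, and the fork protection genes Tipin and Timeless were at -1.05 and -1.02 in no factor at 12 h. Dbf4, the partner of the Cdc7 kinase, was at -0.66 in PDGF-AA and -0.96 in no factor at 12 h. The GINS subunit gene Gins4 had closely similar values in both, -0.67 in PDGF-AA and -0.73 in no factor, whereas Gins1, of the same complex, was not called in any group (0.06 in PDGF-AA and 0.12 in no factor at 12 h). Clspn, a checkpoint mediator, fell to -0.43 in no factor at 12 h. Topbp1 (-0.14) and Wdhd1 (-0.07) were not called in any group. The count of 4 in no factor at 6 d was 1 without no factor 6 d replicate 3 and 2 without replicate 1 or 4, and in PDGF-AA at 12 h it was 1 without PDGF-AA 12 h replicate 1 or 2.

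At the fork itself, 14 of 17 measured genes were lower and 1 was higher in no factor at 12 h (median -0.97), and 8 were lower in PDGF-AA at 12 h (median -0.39). At 6 d, 0 were called in PDGF-AA, and 9 were lower and 1 higher in no factor. The DNA polymerase gene Pole was at -0.89 in PDGF-AA and -1.87 in no factor at 12 h, and Lig1, which joins Okazaki fragments, was at -0.74 in PDGF-AA and -1.86 in no factor. The clamp loader gene Rfc3 (-1.18) and the single-strand binding gene Rpa1 (-1.13) fell too in no factor at 12 h. Prim2, a primase subunit, was at -0.37 in PDGF-AA and -0.36 in no factor, and Pole3 was the 1 that rose, by 0.43 in no factor. The 10 fork genes called in no factor at 6 d became 3 without no factor 6 d replicate 1 and 5 without replicate 3, and the 8 called in PDGF-AA at 12 h became 1, 2 and 4 without PDGF-AA 12 h replicates 1, 2 and 3. In PDGF-AA at 6 d, 1 fork gene was called without PDGF-AA 6 d replicate 1 or 3.

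Of 19 genes of E2F and G1 to S control, 7 were lower and 3 higher in no factor at 12 h (median -0.07), and 3 were lower and 1 higher in PDGF-AA at 12 h. At 6 d, 1 was higher in PDGF-AA, and 4 were lower and 1 higher in no factor. Ccne1 was at -0.44 in PDGF-AA, not called, and -1.68 in no factor at 12 h. The E2F partner gene Tfdp1 (-0.87), the pocket protein gene Rbl1 (-0.84) and the kinase inhibitor gene Cdkn2c (-1.56) fell in no factor at 12 h, and the pocket protein gene Rbl2 rose by 0.50. Cdk4, the gene of a G1 kinase, was also called higher in no factor at 12 h, at 0.38. It was the 1 gene called higher in PDGF-AA at 12 h, again at 0.38. Of the E2F genes measured, E2f5 (-0.49) and E2f7 (-0.59) were called lower in no factor at 12 h. There E2f1 (-0.23), E2f4 (-0.03) and E2f6 (-0.22) were not called. Cdkn1c, which encodes a kinase inhibitor that stops the cycle, rose by 2.11 in PDGF-AA and by 2.87 in no factor at 6 d. At 12 h Cdkn1c was at 0.57 in PDGF-AA, not called, and rose by 1.5 in no factor. Its call in PDGF-AA at 6 d was lost without PDGF-AA 6 d replicate 4, with no dye term and with only that group fitted. Without no factor 6 d replicate 1 or 3 the count of this list in no factor at 6 d was 2, and without no factor 12 h replicate 1, 2 or 3 that in no factor at 12 h was 6. In PDGF-AA at 12 h the count was 2 without any 1 of 6 arrays (PDGF-AA 12 h replicates 1, 2 and 4, no factor 6 d replicates 2 and 3 and no factor 12 h replicate 1), and in PDGF-AA at 6 d it was 2 without PDGF-AA 6 d replicate 1. Of 27 genes of G2 and mitosis, set beside them for comparison, 24 were lower in no factor at 12 h (median -1.44) and 21 in PDGF-AA at 12 h (median -0.95). At 6 d 4 were lower in PDGF-AA and 21 in no factor. The count in PDGF-AA at 6 d was 13 without PDGF-AA 6 d replicate 1, 1 without replicate 2 or 4 of that group, and 2 without no factor 6 d replicate 3 or PDGF-AA 12 h replicate 2 or 4.

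In PDGF-AA at 12 h, 1 of 5 MCM genes was called lower (median -0.44), beside 21 of 27 mitotic genes, among them Top2a (-1.40), Ube2c (-1.32), Ccna2 (-1.16) and Cdk1 (-1.16). In no factor at 12 h the same 4 genes were at -2.49, -1.82, -1.92 and -1.89, within the range of the MCM genes, while Cenpa and Nuf2 had the smallest changes of those called, at -0.54 and -0.53. The median difference between PDGF-AA and no factor at 12 h was 1.25 for the 5 MCM genes and 0.00 over all units. Among the lists it was 0.42 for the mitotic genes, 0.42 for the fork genes and 0.07 for helicase activation. For origin licensing it was 0.14, and for E2F and G1 to S control 0.07. No test compares these medians. In each of these lists 0 genes passed limma's test of that difference. The largest difference in each list was 1.24 (Ccne1), 1.12 (Lig1), 1.09 (Top2a), 1.06 (Gmnn) and 0.64 (Cdc45). Among the members, Mcm2 differed by 1.09 and Mcm7 by 0.55, so single genes of the lists differed as much as some members.

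**Figure D5:**
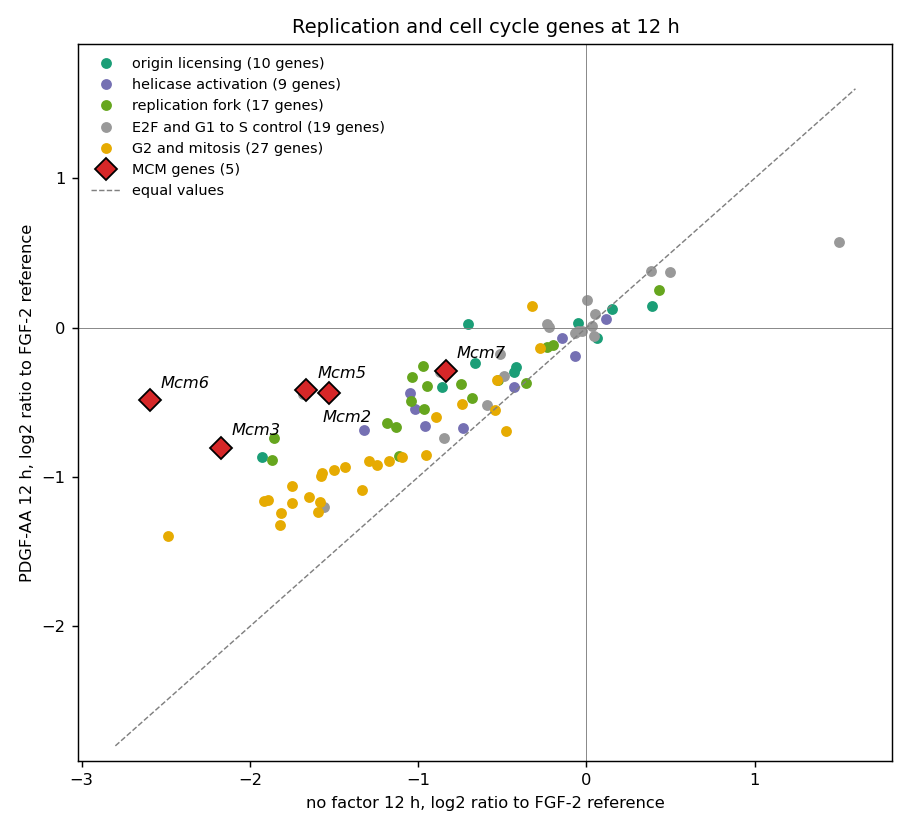
Log2 ratio to the FGF-2 reference in PDGF-AA at 12 h (vertical) against no factor at 12 h (horizontal) for the MCM genes and the genes of 5 lists, each point 1 gene (mean of 4 arrays from limma). Points above the dashed line are higher with PDGF-AA. Mcm6 (-0.49 and -2.59) lies furthest above the line. The mitotic gene Top2a, at -1.40 and -2.49, lies about as far above it as Mcm2 (-0.44 and -1.53). Mcm7 (-0.29 and -0.84) lies nearer to the line than Top2a.

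Markers of differentiated cells also moved between these groups. Of all units, 1.9% were called higher in PDGF-AA at 6 d, 6.99% in no factor at 6 d, 0.661% in PDGF-AA at 12 h and 5.21% in no factor at 12 h. In no factor at 12 h 6.48% were called lower. Of 6 astrocyte markers measured, 3 were higher than in FGF-2 in PDGF-AA at 6 d (array means 0.05 to 1.39) and 5 in no factor at 6 d (0.88 to 1.82). At 12 h, 0 were called with PDGF-AA (0.07 to 0.38), and 1 was higher and 1 lower without factor (0.24 to 0.52). Of 5 neuronal markers, 0 were called in PDGF-AA at 6 d (array means -0.24 to 0.18), 2 were higher in no factor at 6 d (0.19 to 0.46), 1 in PDGF-AA at 12 h (0.10 to 0.30), and 2 were higher and 1 lower in no factor at 12 h (-0.11 to 0.30). Both oligodendrocyte lineage genes measured, Pdgfra and Sirt2, were higher in no factor at 6 d, and 1 of the 2 was in PDGF-AA at 6 d, with array means of 1.01 to 3.06 in PDGF-AA and 0.86 to 3.06 in no factor. At 12 h, 0 of the 2 were called with PDGF-AA and 1 was higher without factor. Of the microglial genes C1qa and C1qb none was called in any group, and of 3 endothelial and mural genes 1 was higher in PDGF-AA at 6 d, 1 in no factor at 6 d and 1 in no factor at 12 h. The part of these cell types in the MCM values was not tested.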

How the data were processed

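RNA of rat neural stem and progenitor cells was read on 16 two-colour mouse cDNA arrays, so sequence differences between the species can lower a signal. Per the labels, 40 µg of total RNA were reverse transcribed with Cy3 or Cy5, hybridised and scanned (ScanArray), and spots were measured in QuantArray. The deposited values are log2 ratios, 1 per feature and array, the base being taken as 2. Background correction, normalisation and spot filters are not given in the sources used here. Spot intensities were not used, so precision is set by how many arrays there are. All 16 columns were used (0 left out), and their medians as deposited lay between -0.0053 and 0.0387. Over all units, arrays of different groups and the same dye correlated at 0.0466 or above (median 0.392), while arrays of the same group and opposite dye ran from -0.468 to 0.441 (median 0.0911), so the centred arrays were more alike by dye than by group. With dye effects removed these medians were 0.209 and 0.424.

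Of 15151 features, 8833 had 1 gene symbol in the mouse annotation, 606 several and 5712 none listed. Features of 1 symbol were averaged, and units with at least 3 arrays in every group were kept. Arrays were centred on the median and fitted together in limma 3.58.1 (R 4.3.3) with group and dye terms and empirical Bayes. Tests were two-sided, with Benjamini-Hochberg adjustment over 12559 units and a threshold of 0.05. The fit and the exact permutation test were tested on simulated data. Replicate numbers follow accession order and pair nothing. The members and gene lists were chosen with earlier results of these data known. Named genes were all members, all measured licensing and activation genes, from each other list the 4 lowest and 2 highest among those called in no factor at 12 h, and the 10 genes most and 3 least like the mean member profile. Cdk4 and the measured E2F genes were named in addition. Promoters were searched with Python 3.11.15. Alternatives are given in the closing section. A chromosome is that of the rat build GRCr8, and symbols were matched from mouse to rat by name.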

Additional observations from a re-analysis of the deposited data

How the results depend on the processing

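The share of all units called under each alternative is not given here, so the counts below cannot be set against it. Over 28 alternatives to the fit, 5 of 5 MCM genes stayed called lower in no factor at 12 h in every omission of 1 array, and 4 to 5 were called under the other 12. Mcm2, Mcm3 and Mcm7 in no factor at 6 d kept their calls under all 28, Mcm6 lost its call under 1 and Mcm5 under 6. Mcm7 in PDGF-AA at 6 d lost its call under 3 and its sign under 1, and Mcm3 in PDGF-AA at 12 h and both Mcm6 differences lost theirs under 14 each. In PDGF-AA at 6 d 0 of 5 were called with no dye term, with only that group fitted or with only Cy5 arrays, and 0 to 1 over the omissions. Both title number settings leave the value of that group to PDGF-AA replicate 4 alone, so no count is given for them. In no factor at 6 d 3 were called with only Cy5 arrays and 4 to 5 over the omissions. In PDGF-AA at 12 h 0 were called with scaled arrays, no dye term, a robust trended spread estimate, only Cy5 or only Cy3 arrays, 2 with either title number setting, 5 with array weights and 0 to 2 over the omissions. For PDGF-AA against no factor at 12 h the count was 0 with scaled arrays, no dye term, the robust estimate, only Cy5 or only Cy3 arrays, 3 with only the groups compared or either title number setting, 4 with array weights, and 0 to 1 over the omissions. At 6 d that count was 0 to 3 over the omissions. For 6 d against 12 h without factor it was 0 with scaled arrays, no dye term, the robust estimate, only Cy5 or Cy3 arrays. There it was 2 with either title number setting and 0 to 1 over the omissions. In the setting with array weights, PDGF-AA 12 h replicate 2 had a weight of 5.28. The other arrays of its group had 0.56 to 0.89, so its counts at 12 h lean on that array.

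Some signs turned as well. With the title number as a fixed term, PDGF-AA minus no factor at 6 d was -0.13 (Mcm2), -0.14 (Mcm3), -0.14 (Mcm5) and -0.44 (Mcm6), and with only the commonest title number -0.13, -0.14, -0.18 and -0.41. In the same 2 settings, 6 d minus 12 h with PDGF-AA was -0.66 and -0.66 (Mcm2), -0.47 and -0.48 (Mcm3), -0.51 and -0.56 (Mcm5) and -1.12 and -1.08 (Mcm6), and the interaction of Mcm7 was -0.33 and -0.32. With only Cy3 arrays, 6 d minus 12 h with PDGF-AA was -0.21 (Mcm2), -0.077 (Mcm3), -0.28 (Mcm5) and -0.34 (Mcm6), Mcm5 in PDGF-AA at 12 h was 0.11 and the Mcm7 interaction -0.019. With only Cy5 arrays, PDGF-AA at 6 d was 0.083 (Mcm2), 0.28 (Mcm6) and 0.059 (Mcm7), Mcm7 in PDGF-AA at 12 h was 0.12 and the Mcm2 interaction 0.061. Over single omissions, PDGF-AA at 6 d ran from -0.47 to 0.12 (Mcm2), -0.28 to 0.15 (Mcm5) and -0.63 to 0.073 (Mcm6), all positive only without PDGF-AA replicate 4. There, 6 d minus 12 h with PDGF-AA ran from -0.033 to 0.56 (Mcm2) and -0.15 to 0.56 (Mcm6), and the interaction from -0.50 to 0.087 (Mcm2) and -0.049 to 0.14 (Mcm7). None of these turned values passed the test, and the cause was not tested. The settings with single dyes were chosen after seeing the data.

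Each member has 1 feature, so averaging features in another way changed no member, and the interaction uses all groups, so fitting only the groups compared was not run for it. Counts of the 5 lists also moved. Over the omissions, origin licensing had 3 to 7 genes called in no factor at 12 h and 2 to 4 in no factor at 6 d. Helicase activation had 1 to 4 in no factor at 6 d, replication fork 3 to 11 in no factor at 6 d and 1 to 9 in PDGF-AA at 12 h, and mitosis 1 to 13 in PDGF-AA at 6 d. No paired analysis was possible because the labels give no replicate numbers. Signal over background is unknown here.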
